A study of Saccharomyces cerevisiae with 6 samples.

Results

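The pentose phosphate pathway of Saccharomyces cerevisiae was followed through the transcripts of 10 enzyme genes, out of 5449 genes measured, in a strain lacking GCR2 and in its wild-type comparison. The 10 genes were chosen by name: ZWF1, SOL3, SOL4, GND1 and GND2 of the oxidative branch, and RPE1, RKI1, TKL1, TKL2 and TAL1 of the non-oxidative branch. All 10 had exactly 1 probe set on the Affymetrix yeast array, and all 10 lay above background on all 6 arrays. Background is the 95th percentile of the probe sets taken as those for the other yeast species on the array. Their annotated genes are absent from the S. cerevisiae genes of RefSeq R64.

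RNA came from 3 Gcr2 deletion samples and 3 samples of the wild type FY4, a laboratory strain related to S288C that needs no added amino acids or bases. The labels give no strain for the deletion samples. Every culture grew in batch at 30 °C on minimal medium with glucose, with shaking, and was taken in exponential growth. Nothing in the labels says whether the replicates are separate cultures, and p-values measure only their spread, which may be technical. In RNA of whole cultures, fewer cells with a transcript and less transcript per cell cannot be told apart.

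The pathway starts from glucose 6-phosphate, the same metabolite that enters glycolysis. Its oxidative branch reduces NADP to NADPH at a pair of dehydrogenase steps and ends in ribulose 5-phosphate. Its non-oxidative branch interconverts pentose phosphates with glycolytic sugar phosphates, through an epimerase, an isomerase, transketolase and transaldolase, and supplies ribose 5-phosphate for nucleotides and erythrose 4-phosphate for aromatic amino acids. Gcr2 acts with Gcr1 as a transcriptional activator of glycolytic genes. The question was how transcripts of this neighbouring route differ when GCR2 is absent, and whether its branches differ alike.

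GCR2 was at 4.69, 4.42 and 4.66 on the deletion arrays, against 11.09, 11.06 and 11.17 on the wild-type arrays (log2 intensity). The 3 deletion values were under background, so the deletion level is a bound, at least 27.5-fold lower (limma adjusted p = 1.01e-06). Poly-A control transcripts, which are added to RNA before labelling, averaged 7.35 ± 0.24 on deletion arrays and 8.22 ± 0.40 on wild-type arrays (SD, n = 3 each). Centring each array on these controls put the median change of all genes at 0.90, against 0.02 with the values as deposited. Changes below are therefore differences relative to the other transcripts on an array. Along the first principal component, with 61.8% of the variance, deletion replicate 1 and wild-type replicate 3 were farthest out.

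Most pentose phosphate pathway genes were slightly higher in the deletion. Of the 10 genes 7 rose, by 0.17 to 0.57 on the log2 scale, which is 1.12-fold to 1.49-fold. RKI1 fell by 0.27, and GND2 and TAL1 did not pass the test. A gene was called where limma's adjusted p, over all 5449 genes, was under 0.05. Of all tested genes 14.1% were called higher and 8.35% lower, 22.5% either way. The deletion values lay wholly above the wild-type values for 8 of the 10 genes and wholly below them for 1; over all genes these shares were 27.1% and 18.1%, or 45.2% together. The median change of the 10 genes was 0.22, beside 0.02 over all genes.

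Most of the calls rested on having all 6 arrays. All 10 genes kept their direction when any single array was left out. For all but GND2 this was fixed in advance, since their groups did not overlap. GND1 was the only one called in all 6 such fits. The number called higher was 2, 2 and 1 without deletion replicates 1, 2 and 3, and 3, 5 and 5 without wild-type replicates 1, 2 and 3. Over all genes the number called higher, 769 with all arrays, fell too. It was 300, 351 and 239 without these deletion replicates, and 448, 751 and 646 without these wild-type replicates. The loss of calls was thus not particular to the pathway genes. RKI1, the gene called lower, lost its call when any one deletion array, or wild-type replicate 1, was left out.

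**Figure D1:**
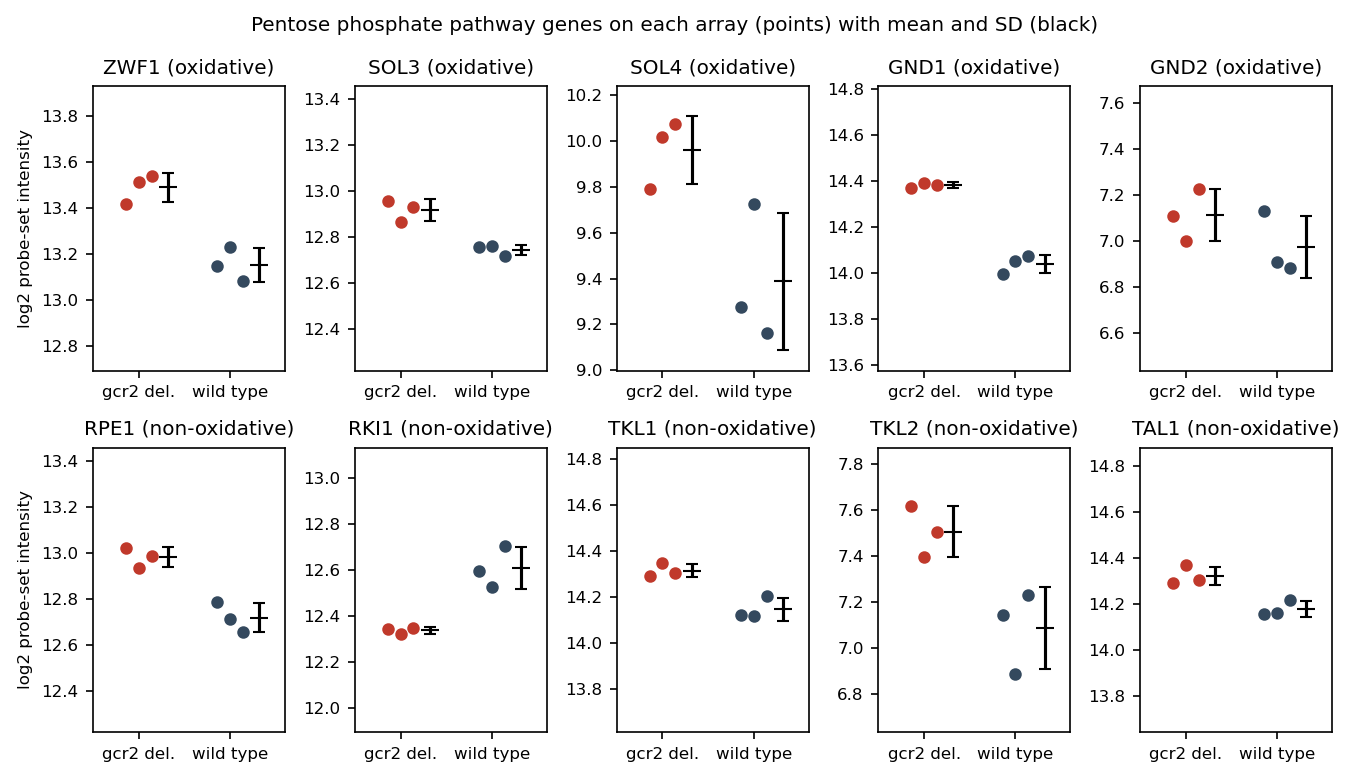
Log2 probe-set intensity of the 10 genes on each array, gcr2 deletion at left and wild type at right of each panel, with mean and SD (n = 3) in black. Every panel spans the same log2 range around its own midpoint, and only GND2 has groups that overlap.

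ZWF1 codes for glucose-6-phosphate dehydrogenase, which opens the oxidative branch and makes NADPH. It was at 13.42, 13.51 and 13.54 in the deletion, against 13.14, 13.23 and 13.08 in the wild type. The groups did not overlap, and the lowest deletion array lay above the highest wild-type array. ZWF1 rose by 0.34 (SE 0.06, 95% interval 0.20 to 0.47, limma adjusted p = 0.0127), a change at the 91.9th percentile of all genes. The call was lost without deletion replicate 2 (adjusted p = 0.0507) or deletion replicate 3 (adjusted p = 0.0613).

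SOL3 and SOL4 code for 6-phosphogluconolactonases, which hydrolyse the lactone made by Zwf1. SOL3 was at 12.96, 12.86 and 12.93 in the deletion, against 12.75, 12.76 and 12.72 in the wild type. Its groups were tight and separate, and it rose by 0.17 (SE 0.04, limma adjusted p = 0.0330). SOL4 was at 9.79, 10.02 and 10.07 in the deletion, against 9.28, 9.73 and 9.16 in the wild type. Here the wild-type arrays were spread, with replicate 2 high and close to the lowest deletion array.

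SOL4 had the highest change of the 10 genes and the widest interval. It rose by 0.57 (SE 0.16, 95% interval 0.18 to 0.96, limma adjusted p = 0.0498), at the 97.5th percentile of all genes. Its adjusted p lay just inside the threshold and was 0.0139 without wild-type replicate 2, but 0.0790 to 0.157 without any one of the other 5 arrays. The SOL3 call was lost whichever array was left out, with adjusted p from 0.0536 to 0.132.

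GND1 and GND2 code for 6-phosphogluconate dehydrogenase, which yields NADPH and ribulose 5-phosphate; Gnd1 is the main isozyme. GND1 was at 14.37, 14.39 and 14.38 in the deletion, against 13.99, 14.05 and 14.07 in the wild type. The deletion arrays were nearly equal and lay well above all wild-type arrays. GND1 rose by 0.34, or 1.27-fold (SE 0.04, 95% interval 0.25 to 0.44, limma adjusted p = 0.00412). This call also held at an adjusted p under 0.01, where no other of the 10 genes passed. Without any one array its adjusted p was 0.00847 to 0.0303.

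GND2 was at 7.11, 6.997 and 7.22 in the deletion, against 7.13, 6.91 and 6.88 in the wild type. Wild-type replicate 1 lay between deletion replicates 1 and 3, so the groups overlapped. Its difference was 0.14, with a 95% interval of -0.08 to 0.36 (limma adjusted p = 0.299), which includes both no change and one as large as that of GND1. Its lowest margin over background was 0.49 on the log2 scale.

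**Figure D2:**
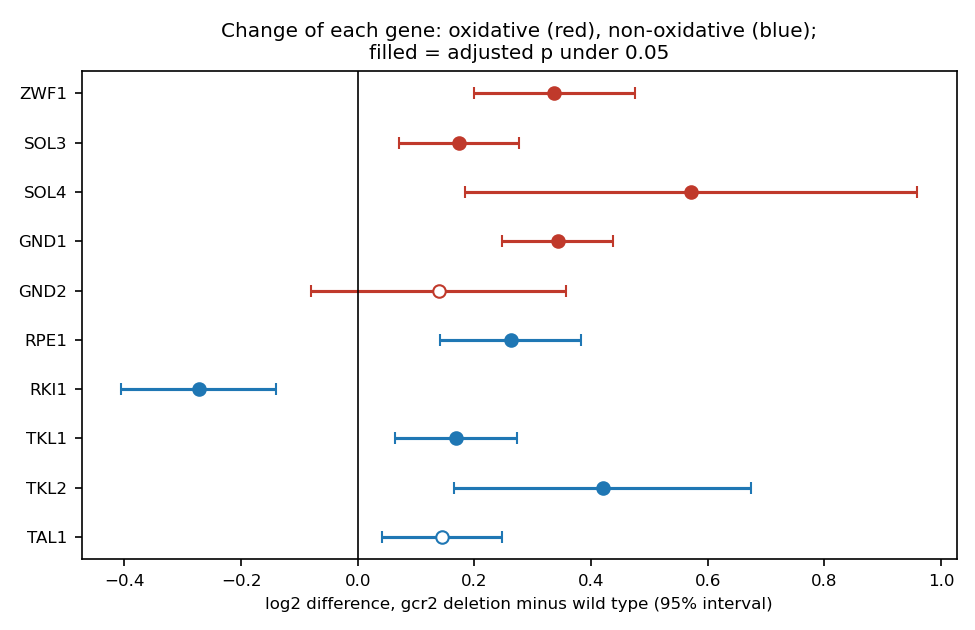
Change of each gene (log2 difference, gcr2 deletion minus wild type, with limma's 95% interval), oxidative branch in red and non-oxidative branch in blue, filled where the adjusted p was under 0.05. All points but RKI1 lie right of 0; RKI1 is at -0.27 (0.60 when arrays are centred on poly-A controls, where the median of all genes is 0.90).

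RPE1 and RKI1 act on the same substrate, ribulose 5-phosphate. Rpe1, the epimerase, makes xylulose 5-phosphate, and Rki1, the isomerase, makes ribose 5-phosphate. RPE1 was at 13.02, 12.94 and 12.99 in the deletion, against 12.79, 12.71 and 12.66 in the wild type. All deletion arrays lay above all wild-type arrays, and RPE1 rose by 0.26 (SE 0.05, 95% interval 0.14 to 0.38, limma adjusted p = 0.0175). The call was lost without deletion replicate 1 (adjusted p = 0.0679) or deletion replicate 3 (adjusted p = 0.0800).

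RKI1 was at 12.34, 12.32 and 12.35 in the deletion, against 12.60, 12.53 and 12.71 in the wild type. The deletion arrays were nearly equal and lay below every wild-type array. RKI1 fell by 0.27, or 1.21-fold (SE 0.05, 95% interval -0.41 to -0.14, limma adjusted p = 0.0202), although centring on the poly-A controls turned its value to 0.60, below the median of 0.90 for all genes in that setting. Without wild-type replicate 1 its adjusted p was 0.0530, and without deletion replicates 1, 2 and 3 it was 0.0689, 0.0683 and 0.0817.

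The ratio of RPE1 to RKI1 within an array does not depend on how arrays are centred. Relative to its wild-type mean, this log2 ratio was 0.57, 0.50 and 0.53 on the deletion arrays, against 0.08, 0.08 and -0.16 on the wild-type arrays. The ratio was thus higher on every deletion array, by 0.53 on average, or 1.45-fold. That separation was fixed in advance, since the deletion arrays lay wholly above the wild type for RPE1 and wholly below for RKI1. This pair was chosen after its values were seen, so no test is given.

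TKL1 and TKL2 code for transketolases, which move a ketol unit between sugar phosphates, and Tkl1 is the main isozyme. TKL1 was at 14.29, 14.35 and 14.31 in the deletion, against 14.12, 14.12 and 14.21 in the wild type. The groups did not overlap, wild-type replicate 3 coming closest to the deletion arrays, and TKL1 rose by 0.17 (SE 0.04, limma adjusted p = 0.0389). TKL2 was at 7.62, 7.39 and 7.51 in the deletion, against 7.14, 6.89 and 7.23 in the wild type. It was low in both groups, with a smallest margin of 0.66 over background, and its groups did not overlap.

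TKL2 rose by 0.42, or 1.34-fold (SE 0.10, 95% interval 0.17 to 0.67, limma adjusted p = 0.0355). The TKL1 call remained only without wild-type replicate 3 (adjusted p = 0.0314) and otherwise had an adjusted p of 0.0778 to 0.131. The TKL2 call was lost without wild-type replicate 1 (0.0705) and without deletion replicates 1, 2 and 3 (0.110, 0.0647 and 0.117).

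TAL1 codes for transaldolase, which moves an aldol unit between sugar phosphates. It was at 14.29, 14.37 and 14.31 in the deletion, against 14.15, 14.16 and 14.22 in the wild type. The groups did not overlap, yet the difference of 0.14 (SE 0.04, 95% interval 0.04 to 0.25) just missed the threshold (limma adjusted p = 0.0565). TAL1 passed in 3 of 16 alternatives. These were array weights (adjusted p = 0.0244), an intensity-trended robust prior (adjusted p = 0.0241) and poly-A centring (adjusted p = 0.00375). It was called in none of the fits without a single array, with adjusted p from 0.0566 to 0.1575.

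**Figure D3:**
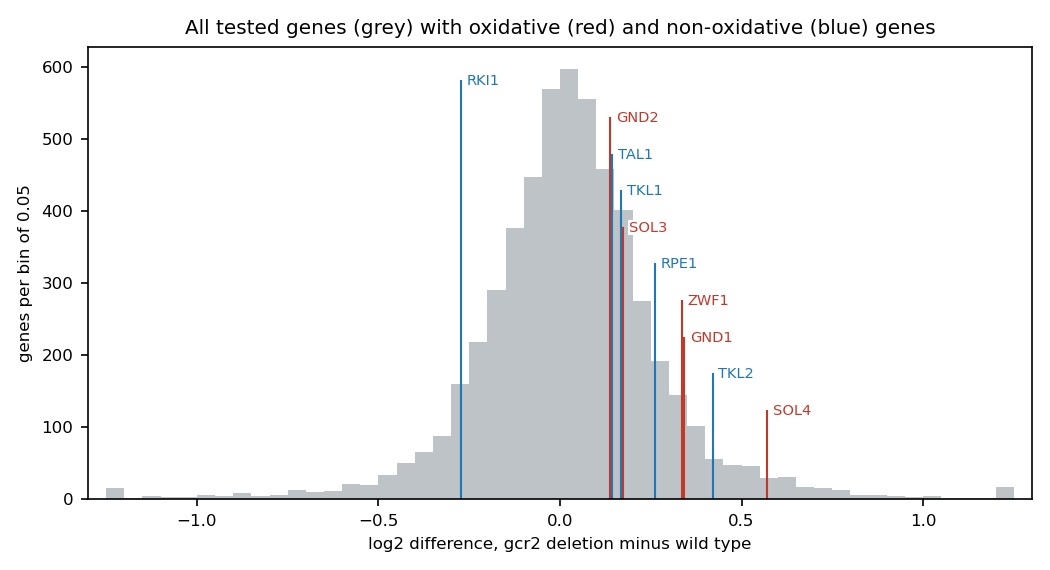
Number of genes (vertical axis) by log2 difference, gcr2 deletion minus wild type (horizontal axis), for 5449 genes in grey, with the pentose phosphate genes as vertical lines, red for oxidative and blue for non-oxidative; line heights only separate the labels. The end bars pool the 30 genes with larger changes; the pathway genes run from RKI1 at -0.27 to SOL4 at 0.57.

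The branches were compared by their mean change. In the oxidative branch 4 of 5 genes rose and 1 did not pass, with a mean change of 0.31. In the non-oxidative branch 3 of 5 rose, RKI1 fell and 1 did not pass, with a mean change of 0.14. Over all genes 14.1% were called higher and 8.35% lower, with a mean change of 0.02. Relative to the wild-type mean, the oxidative mean was 0.27, 0.30 and 0.37 on the deletion arrays, against 0.0006, 0.08 and -0.08 on the wild-type arrays. The non-oxidative mean was 0.17, 0.13 and 0.14 on the deletion arrays, against 0.01, -0.07 and 0.05 on the wild-type arrays. Each branch mean was thus higher on every deletion array than on any wild-type array.

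The difference between the branches was smaller than the spread of the arrays allows to call. Oxidative minus non-oxidative was 0.10, 0.17 and 0.23 on the deletion arrays, against -0.01, 0.14 and -0.13 on the wild-type arrays. Wild-type replicate 2 lay above deletion replicate 1, so the groups overlapped. The mean difference was 0.17, with a within-group SD of 0.11, and was 0.10 without wild-type replicate 3. Leaving RKI1 out, a choice made after seeing the data, reduced it to 0.06. The genes were chosen with results known, so no p is given for the branch means.

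**Figure D4:**
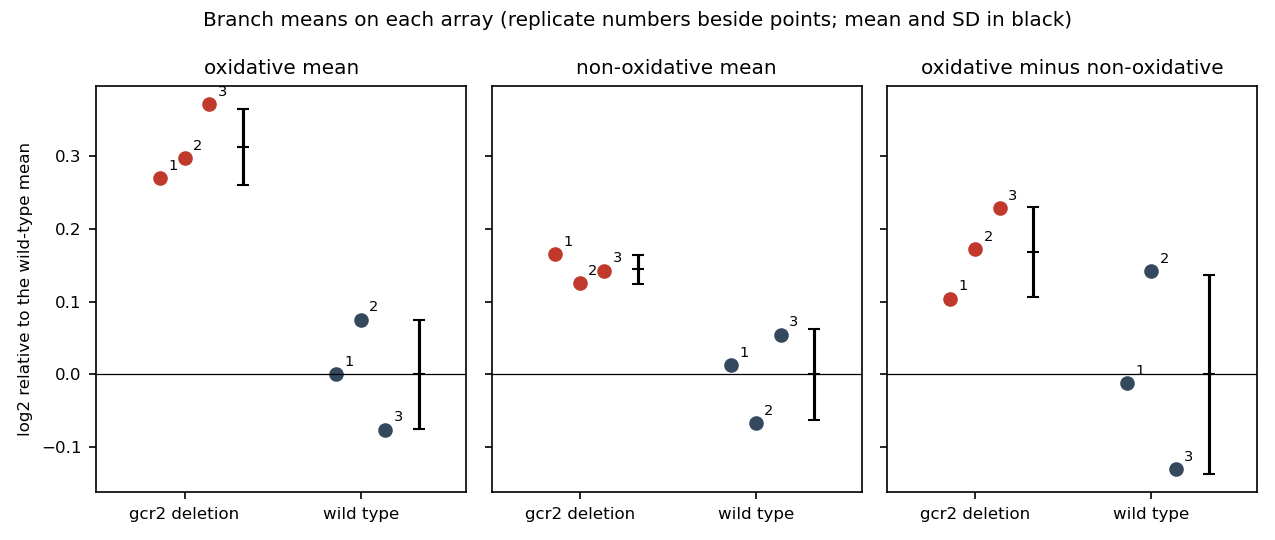
Mean of the 5 oxidative genes, mean of the 5 non-oxidative genes, and their difference on each array (log2, relative to the wild-type mean), gcr2 deletion left and wild type right, with replicate numbers beside the points and mean and SD (n = 3) in black. The branch means separate the groups, whereas the difference overlaps, from 0.10 to 0.23 in the deletion and -0.13 to 0.14 in the wild type.

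Lactonase, 6-phosphogluconate dehydrogenase and transketolase each have a main and a minor isozyme gene, and NQM1 is the paralog of TAL1. NQM1, outside the 10 genes, was at 8.43, 8.44 and 8.36 in the deletion, against 8.08, 8.24 and 7.77 in the wild type. Its difference was 0.38 with groups that did not overlap (limma adjusted p = 0.0644), and it passed without wild-type replicate 2 (adjusted p = 0.0306). In each of 4 pairs, the within-array ratio of the minor over the main gene was compared between groups by an exact two-sided permutation test, whose smallest possible p is 0.1 here.

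No pair could pass 0.05 in this design, and after adjustment over the 4 pairs no p was under 0.267. SOL4 over SOL3, relative to its wild-type mean, was 0.19, 0.51 and 0.50 in the deletion, against -0.12, 0.32 and -0.20 in the wild type. The groups overlapped through wild-type replicate 2, with a mean difference of 0.40 (SE 0.19, exact permutation p = 0.2). TKL2 over TKL1 was 0.39, 0.11 and 0.26 in the deletion, against 0.08, -0.17 and 0.09 in the wild type. This was the one pair whose groups did not overlap, by 0.25 on average (SE 0.12, exact permutation p = 0.1).

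GND2 over GND1 ran the other way, at -0.19, -0.33 and -0.09 in the deletion, against 0.20, -0.08 and -0.12 in the wild type. Its groups overlapped, with a mean difference of -0.20 (SE 0.12, exact permutation p = 0.2). NQM1 over TAL1 was 0.29, 0.22 and 0.20 in the deletion, against 0.07, 0.23 and -0.30 in the wild type. Its groups overlapped too, with a mean difference of 0.24 (SE 0.16, exact permutation p = 0.3).

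**Figure D5:**
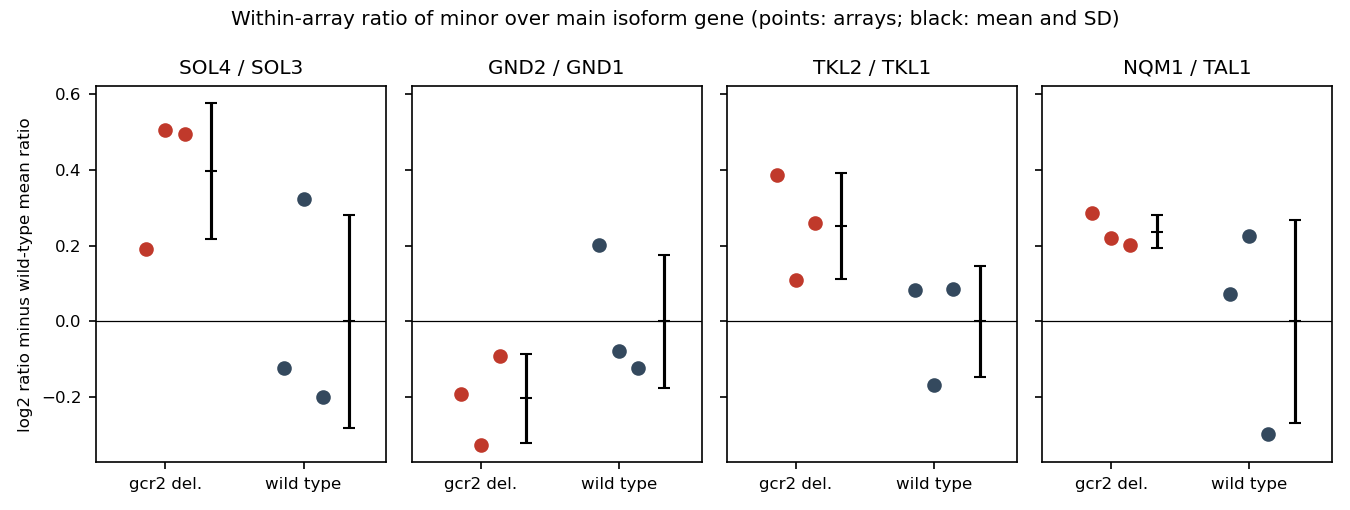
Within-array log2 ratio of the minor over the main gene of 4 pairs, minus the wild-type mean, gcr2 deletion left and wild type right of each panel, with mean and SD (n = 3) in black. Groups overlap in 3 pairs and are separate for TKL2 over TKL1; the deletion mean is above the wild-type mean except for GND2 over GND1.

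The minor isozyme genes are known to be induced by stress, so general stress genes were read beside them. Of 10 such genes 4 rose and 6 did not pass, with a median change of 0.38. Over all genes 14.1% were called higher, with a median change of 0.02. The difference was above 0 for 8 of the 10, but GPH1 was at -0.31 and DDR2 at -0.05. GPH1, glycogen phosphorylase, had all deletion arrays below all wild-type arrays, though it was not called (limma adjusted p = 0.0884). CTT1, catalase T, rose by 0.95, TPS2, trehalose-phosphate phosphatase, by 0.58, GAD1, glutamate decarboxylase, by 0.45 and GSY2, glycogen synthase, by 0.45 (limma adjusted p = 0.00936, 0.0239, 0.0399 and 0.0473). CTT1 was called whichever array was left out. The TPS2 call was lost without deletion replicates 2 and 3 (0.0783 and 0.0931) and without wild-type replicates 1 and 3 (0.0667 and 0.0573). GAD1 and GSY2 were called in such fits only without wild-type replicate 2, and otherwise had adjusted p from 0.0712 to 0.104 and from 0.0839 to 0.152. Wild-type replicate 2 was the highest wild-type array for 9 of these 10 genes, as it was for SOL4 and NQM1 but not for GND2 or TKL2. The summed intensity of the 10 genes was 26086 to 29662 on deletion arrays and 20995 to 25794 on wild-type arrays, and none was under background on all arrays of a group. Their part in the changes of SOL4, TKL2 and NQM1 was not tested.

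In the order of genes of assembly R64, SOL3 and GND1 lie on the same chromosome with 21 annotated genes between them, and SOL4 and GND2 lie on another with 8 between them. Of 20 genes next to the 10 pathway genes, 18 were measured and 1 was called, beside 22.5% of all genes. That gene was MGA1, next to SOL4, which rose by 0.65 (limma adjusted p = 0.00566). MGA1, whose product resembles heat shock transcription factors, was chosen after its values were seen.

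Genes around the pathway were read from lists of its paralogs, entries, products and cofactor. The SOL family has 2 further members, SOL1 and SOL2, not assigned to this pathway. SOL1 was at 10.43, 10.54 and 10.60 in the deletion, against 9.72, 9.83 and 9.40 in the wild type. It rose by 0.88, or 1.84-fold (SE 0.12, limma adjusted p = 0.00650), and was called whichever array was left out; its difference from the changes of SOL3 and SOL4 was not tested. SOL2 rose by 0.36 (SE 0.05, limma adjusted p = 0.00688). All 4 SOL genes were thus called higher, each with groups that did not overlap, beside 14.1% and 27.1% of all genes. The SOL3 call was lost whichever array was left out, and the SOL4 call held only without wild-type replicate 2.

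Of 7 genes at side entries to the pathway 4 rose and 3 did not pass, with a median change of 0.36. Over all genes 14.1% were called higher, with a median change of 0.02. SHB17 codes for sedoheptulose bisphosphatase, which feeds carbon from glycolysis into the non-oxidative branch. It was at 13.17, 13.10 and 13.10 in the deletion, against 12.82, 12.74 and 12.75 in the wild type. Both groups were tight, and SHB17 rose by 0.36 (SE 0.04, limma adjusted p = 0.00489). GRE3, an aldose reductase that uses NADPH, rose by 0.47 (adjusted p = 0.00248), XYL2, xylitol dehydrogenase, by 0.38 (adjusted p = 0.0128) and PRM15, phosphoribomutase, by 0.24 (adjusted p = 0.0144). The XYL2 call was lost without deletion replicate 1 (0.0519), and the PRM15 call without deletion replicates 1, 2 and 3 (0.0565, 0.0548 and 0.0588).

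None of the listed genes that use the pathway's sugar phosphates was called, beside 22.5% called either way over all genes. With lists of 5 and 4 genes, none called does not set them apart from that share. The 5 subunit genes of phosphoribosyl pyrophosphate synthetase, which draws on ribose 5-phosphate, had a median change of 0.0037. The deletion values lay wholly above the wild-type values for 2 of them and wholly below for 1. Over all genes these shares were 27.1% and 18.1%. PRS2, with the smallest adjusted p of these, differed by 0.23 (adjusted p = 0.0663). The 4 shikimate pathway genes, which draw on erythrose 4-phosphate, had a median change of 0.06. For 2 of them the deletion values lay wholly above the wild-type values. ARO1, the pentafunctional enzyme, differed by 0.10 (limma adjusted p = 0.0783), with all deletion arrays above all wild-type arrays.

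The list of other sources of NADPH, which takes in kinases of NAD and NADH, went both ways. Of 8 genes 2 rose, 1 fell and 5 missed the threshold, beside 14.1% higher and 8.35% lower over all genes. The 2 that rose were NAD kinase genes, and no gene for an enzyme that reduces NADP was called higher. The median change was 0.03. ALD6, cytosolic acetaldehyde dehydrogenase and a major source of NADPH beside Zwf1, was at 13.48, 13.73 and 13.69 in the deletion, against 14.09, 14.28 and 14.21 in the wild type. ALD6 fell by 0.56 (SE 0.08, limma adjusted p = 0.00881), with a value of 0.32 when centred on poly-A controls, below the median of 0.90 for all genes in that setting. The NAD kinase genes YEF1 and UTR1, whose products make NADP, rose by 0.54 (adjusted p = 0.00754) and 0.30 (adjusted p = 0.0328). YEF1 was called whichever array was left out, whereas the UTR1 call was lost each time, with adjusted p from 0.0501 to 0.0825.

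Of 8 genes for enzymes that use NADPH 2 rose and 6 did not pass, beside 14.1% called higher over all genes. Their median change of 0.02 was that of all genes. OYE2, an old yellow enzyme, rose by 0.46 (SE 0.04, limma adjusted p = 0.00164). GLR1, glutathione reductase, rose by 0.21 (SE 0.04, limma adjusted p = 0.0136), a call lost without deletion replicate 1 (0.0527) or deletion replicate 3 (0.0762). Both had groups that did not overlap.

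Among 6 transcription factor genes, GCR2 included, 2 rose, 3 fell and 1 did not pass, beside 14.1% higher and 8.35% lower over all genes. GCR1, the partner of GCR2, fell by 0.95 (limma adjusted p = 0.00143), a call lost with poly-A centring, where it was at -0.07 (adjusted p = 0.815). The median of all genes was 0.90 in that setting, so GCR1 stayed below it. MSN4, a general stress activator, fell by 0.81 (adjusted p = 0.00942) and its paralog MSN2 rose by 0.20 (adjusted p = 0.0235). With poly-A centring MSN4 was at 0.06, also below the median of all genes. The MSN2 call was lost without wild-type replicate 1 (0.0627) and without deletion replicates 1, 2 and 3 (0.0759, 0.0650 and 0.108). STB5 codes for an activator of pentose phosphate genes under oxidative stress and was added after its values were seen. It was at 9.71, 9.75 and 9.79 in the deletion, against 9.53, 9.61 and 9.56 in the wild type, and rose by 0.18 (SE 0.04, limma adjusted p = 0.0332). Its groups did not overlap, but the call was lost in 9 of 16 alternatives.

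Of 6 genes marking mating type or sporulation 1 rose, 1 fell and 4 did not pass. Over all genes 14.1% were called higher and 8.35% lower. STE3, of mating type alpha, was at 8.51, 8.41 and 8.39 in the deletion, against 7.57, 7.46 and 7.55 in the wild type, and rose by 0.91 (limma adjusted p = 0.000503). SPS4, a sporulation gene, was at 9.09, 9.07 and 9.10 in the deletion, against 10.65, 10.66 and 10.85 in the wild type, and fell by 1.63 (limma adjusted p = 0.000110). The other alpha marker, MF(ALPHA)1, went the other way from STE3, at -0.32, and was not called (limma adjusted p = 0.388). The other sporulation marker, SPR3, went the other way from SPS4, at 0.44, and was not called (limma adjusted p = 0.0861). All deletion arrays lay above all wild-type arrays for SPR3. Both of these markers were near background. SPR3 was at 6.46 on wild-type replicate 1, under that array's background of 6.48. MF(ALPHA)1 was at 6.66 on deletion replicate 1, where background was 6.60. The summed intensity of the 6 was 25436 to 29544 on deletion arrays and 26497 to 29377 on wild-type arrays. STE2 and MFA1, of mating type a, hold most of that sum, so it does not show the markers that moved. None was under background on all arrays of a group, and their part in the changes above was not tested.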

How the data were processed

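Total RNA of 6 samples was hybridised to Affymetrix yeast arrays. The authors deposited 1 table of probe-set intensities on a linear scale for 10928 probe sets, made with R 2.8.0, affy and RMA per the submitters' processing notes. RMA equalises the arrays' intensity distributions, so a change in total messenger RNA is not visible. The probe annotation's genome build was not given in the sources used here.

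Intensities were converted to log2 without a pseudocount. Exactly 1 gene was annotated for 7244 probe sets. Of these 5498 matched S. cerevisiae genes of RefSeq R64, and 1746 matched none and were taken as those of another species. A further 1 named several genes and 3683 were not listed. The brightest probe set per gene (mean over 6 arrays) was kept, leaving 5449 genes, none removed for low signal. Groups were compared with limma 3.58.1 (lmFit, eBayes, no covariates) in R 4.3.3, two-sided, with Benjamini-Hochberg adjustment over all genes; intervals are limma's 95%. The procedure was tested on simulated data. The number of arrays limits precision; over all genes the median 95% interval reached 0.15 to either side.

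The genes and lists were chosen with earlier results of these data known. Named are the 10 pathway genes, NQM1, GCR2, and of each other list the called genes, up to 4 by adjusted p, or the one with the smallest adjusted p; exceptions are stated. Alternatives were a replicate block, leaving out arrays, other scalings, a filter on dim probe sets, averaged probe sets, other variance models and a stricter threshold.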

Additional observations from a re-analysis of the deposited data

How the results depend on the processing

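Direction held for the 10 pathway genes in all 16 alternatives except RKI1, whose value was 0.60 when arrays were centred on poly-A controls. ALD6 (0.32) and MSN4 (0.063) also turned positive there, and GCR1 (-0.07) lost its call. The median of all genes was 0.90 in that setting, above each of these values. The number of pathway genes called higher, 7 with all arrays, ranged from 1 to 5 when single arrays were left out, and the number called lower, 1, from 0 to 1. It was 2 higher and 0 lower without both deletion replicate 1 and wild-type replicate 3, 4 higher after quantile normalization, and 1 higher and 0 lower at an adjusted p under 0.01; with poly-A centring 0 were lower. Over all genes, 769 were called higher and 455 lower. These counts ranged from 239 to 751 and from 167 to 474 without single arrays, and were 199 and 129 without both outer arrays, 4943 and 9 with poly-A centring, and 224 and 123 at the stricter threshold. Deviations of same-numbered samples correlated at 0.53, -0.17 and -0.44 over genes, so the replicate numbers were not taken as pairs. Deletion replicate 2 correlated at 0.58 with wild-type replicate 3, and deletion replicate 3 at 0.49 with wild-type replicate 2. With the replicate number as a block, 4 pathway genes were called higher and 433 and 300 of all genes higher and lower, and 1 of 3 deletion samples correlated best with its own number. Oxidative minus non-oxidative stayed positive in all settings, from 0.10 to 0.24 without single arrays. Centring the arrays cannot alter this difference, and neither can settings that leave the genes' values as they are. The ratios of paralog pairs kept their sign in each setting run. Averaging probe sets could not change the 10 genes' values, since each had 1. The replicate block, the filter on dim probe sets, the trended robust prior and the stricter threshold also left these values as they were. Direction could not turn in these settings, nor without a single array for genes whose groups do not overlap.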

Other observations

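YDR248C, annotated as a putative gluconokinase, would lead into the oxidative branch at 6-phosphogluconate. It was at 12.36, 11.07 and 11.28 on the deletion arrays, against 10.88, 11.18 and 10.83 on the wild-type arrays. Deletion replicate 1 stood alone at the high end, the other arrays overlapped, and the mean difference of 0.61 was not called (SE 0.34, limma adjusted p = 0.236). The gene was chosen after its values were seen.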
